A study of Homo sapiens with 24 samples.

Results

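The mRNAs described here encode the subunits of 2 large complexes that work on RNA polymerase II, Mediator and Integrator. They were chosen by gene symbol, MED or INTS followed by a number with or without a final L, and had to show a T-to-C conversion above 0 in all 4 libraries taken at 0 h. Of 46 such symbols in the table, 44 met the rule, 29 of Mediator and 15 of Integrator, out of 11692 genes of the series that were above 0 at 0 h. MED12L and INTS1 were not included because each was listed at 0 in at least 1 library at 0 h. A second requirement, a conversion above 0 in at least 20 of the 24 libraries, was passed by 43 of the 44 and by 10731 genes in all. INTS3 did not pass it and is described apart.

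SLAM-seq was used to follow RNA decay in HEK293T, a line of human embryonic kidney cells, that carried lentiCRISPR_v2 with puromycin selection. The guides were either non-targeting (sgNT) or aimed at CNOT3, which belongs to the CCR4-NOT deadenylase (sgCNOT3). All cells received 75 µM 4-thiouridine (4-SU) for 24 h, with medium renewed every 3 h, and 10 mM UTP then ended the labelling. RNA was collected 0, 1, 2, 4, 8 and 12 h later, with 2 libraries for each genotype and time. Each genotype had a pair of guides, and the labels do not tell which library received which guide or whether replicates came from separate cultures. The p-values therefore rest on the spread between the libraries at hand, and that spread may be technical. Conversion, printed here in percent, is the share that carries the mark of 4-SU, and its loss during the chase follows the disappearance of RNA made before the chase. It does not measure an amount of RNA, so neither the loss of CNOT3 nor the identity of the cell line could be checked against levels of expression. No read depth is given with the values.

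Mediator bridges sequence-specific transcription factors and RNA polymerase II at promoters. Its head and middle modules touch the polymerase, its tail receives most activators, MED14 runs through all of these as a scaffold, and a separable kinase module holds CDK8 or CDK19 with cyclin C. Integrator binds paused polymerase, cuts the nascent RNA with the INTS11 endonuclease, and carries a PP2A phosphatase that removes marks of elongation. CCR4-NOT shortens poly(A) tails, and the study stratified mRNAs by a score of the arginine codons CGG, CGA and AGG. In that score each codon was weighted by its P-site enrichment in ribosomes bound by CNOT3. The shares of these codons given here are not weighted.

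Stretches of 30 codons (90 bases) are shown to let the reader see how these codons lie in the coding sequences of 5 members. They were read from GENCODE release 44 on GRCh38, and each is the window, within 1 coding exon, that holds the most CGG, CGA and AGG codons of its mRNA. Capitals mark in-frame CGG, CGA and AGG codons. MED26 was chosen as the member with the highest share of them, MED29 as the member with none, MED31 and INTS13 as mRNAs with slower loss of conversion in sgCNOT3, and INTS12 as the Integrator mRNA with the lowest share. The MED26 window (chr19:16577380-16577469, minus strand, exon 3, codons 121 to 150) holds 5 such codons and 3 other arginine codons. The MED31 window (chr17:6644521-6644610, minus strand, exon 4, codons 85 to 114) holds 3 of them and 1 other arginine codon. The MED29 window (chr19:39391510-39391599, plus strand, exon 1, codons 30 to 59) holds 0 of them and 1 other arginine codon. The INTS13 window (chr12:26913531-26913620, minus strand, exon 14, codons 548 to 577) holds 4 of them and 2 other arginine codons. The INTS12 window (chr4:105691991-105692080, minus strand, exon 6, codons 185 to 214) holds 2 of them and 2 other arginine codons.
MED26: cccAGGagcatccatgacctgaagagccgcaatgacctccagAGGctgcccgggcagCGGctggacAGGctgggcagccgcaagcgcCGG
MED31: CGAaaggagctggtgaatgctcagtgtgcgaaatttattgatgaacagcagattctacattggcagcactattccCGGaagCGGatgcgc
MED29: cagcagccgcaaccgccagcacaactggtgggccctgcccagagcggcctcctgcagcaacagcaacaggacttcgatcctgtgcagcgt
INTS13: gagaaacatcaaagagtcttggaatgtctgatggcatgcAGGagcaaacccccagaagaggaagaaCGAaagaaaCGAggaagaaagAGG
INTS12: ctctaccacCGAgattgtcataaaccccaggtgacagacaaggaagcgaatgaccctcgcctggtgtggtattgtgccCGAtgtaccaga

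Conversion was compared first as the median over the members of each complex in each library. At 0 h the Mediator median was 38.9% and 34.5% in the sgNT libraries against 26.9% and 32.6% in sgCNOT3, with both sgCNOT3 values under both sgNT values. The Integrator median at 0 h was 40% and 35.7% in sgNT, against 36.4% and 40.1% in sgCNOT3, and the genotypes overlapped. At 12 h both complexes stood higher in both sgCNOT3 libraries. Mediator had 2.66% and 3.49% in sgNT against 5.79% and 7.43% in sgCNOT3, and Integrator had 3.00% and 2.46% against 5.15% and 6.32%. Over all times the Integrator median was above that of Mediator in 3 of the 12 sgNT libraries and 4 of the 12 in sgCNOT3. In sgNT these were both libraries at 0 h and replicate 1 at 12 h. In sgCNOT3 they were both libraries at 0 h and replicate 1 at 1 h and at 2 h. Elsewhere the Integrator median was the lower one. The sgCNOT3 libraries at 2 h differed widely in all genes, with medians of 29.1% and 18.8%. The Integrator medians in those libraries were 31.1% and 11.3%.

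**Figure D1:**
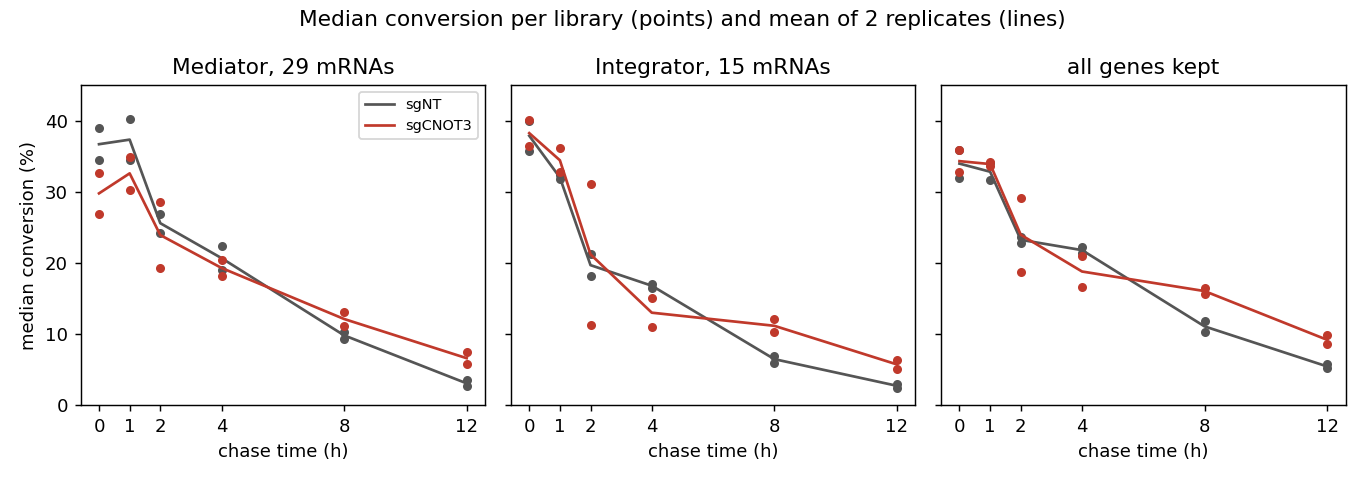
Median conversion in percent against chase time in h for the 29 Mediator mRNAs, the 15 Integrator mRNAs and all genes kept, where points are single libraries and lines join the means of 2 replicates. At 12 h the sgCNOT3 libraries lie above the sgNT libraries in all 3 panels, whereas at 0 h they lie below them only for Mediator.

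The loss of conversion was slower in sgCNOT3 for 12 of 29 Mediator mRNAs and for 2 of 14 Integrator mRNAs, and it was faster for none of either complex. These calls come from the interaction of genotype and chase time in limma, with Benjamini-Hochberg adjustment over 10731 genes and a threshold of 0.05 for the adjusted p, and a positive slope difference means that log2 conversion fell less steeply in sgCNOT3 or did not fall. Of all genes tested, 21.7% were slower and 0.345% faster. The share of slower mRNAs was 41.4% in Mediator and 14.3% in Integrator. The difference between the complexes was not tested. The median slope difference was 0.12 log2 units per h in Mediator, 0.069 in Integrator and 0.058 over all genes, and it was above 0 in 26 of 29, in 12 of 14 and in 81.7% of all genes. The median SE of a member's slope difference was 0.044 in Mediator and 0.048 in Integrator. When every library was centred on its own median over genes, the median slope difference of all genes moved from 0.058 to -0.0076, and no member remained slower. On that scale the medians were 0.052 in Mediator and 0.0031 in Integrator, and the call that passed was MED10, as faster (-0.077 ± 0.025, limma adjusted p = 0.0497).

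**Figure D2:**
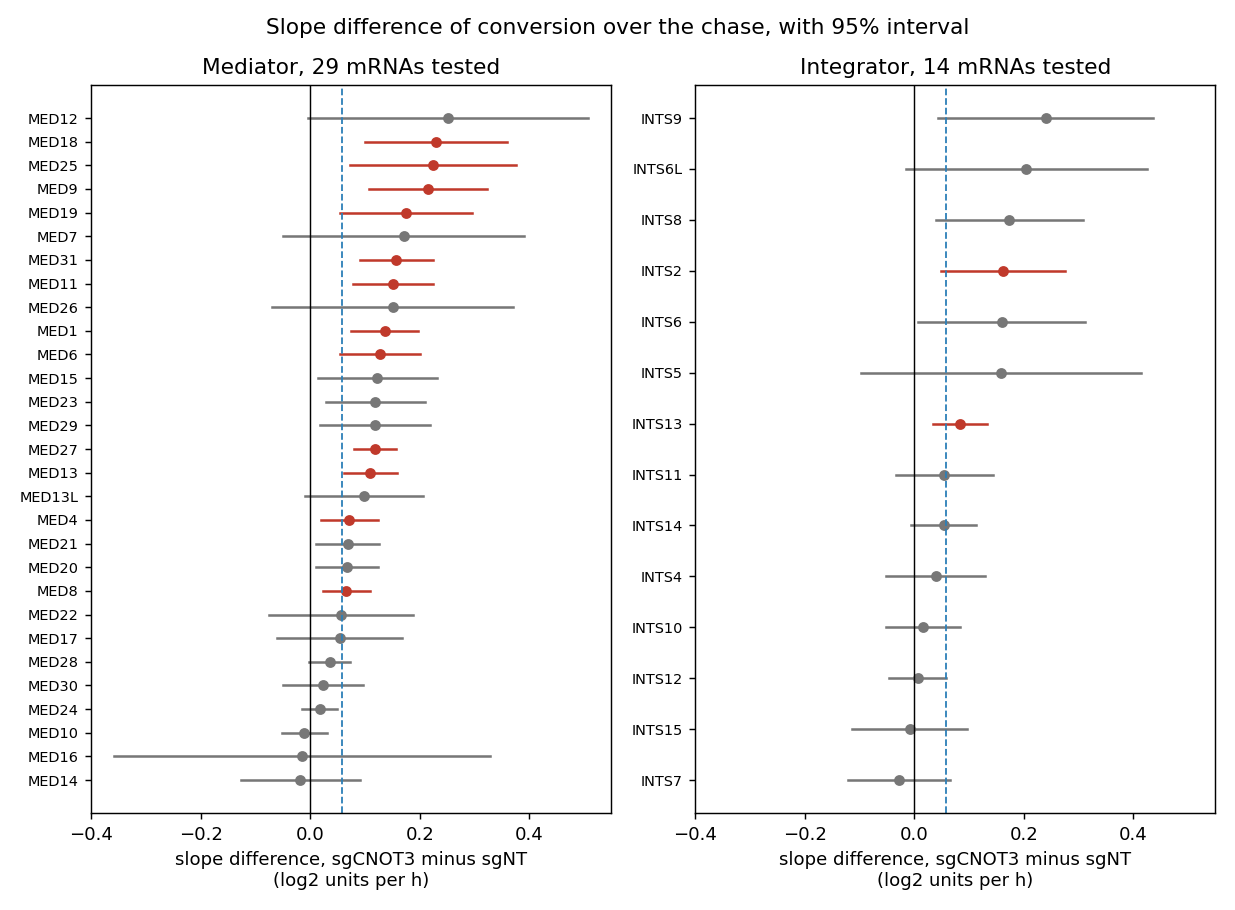
Slope difference (sgCNOT3 minus sgNT, log2 units per h) with its 95% interval for each of the 29 Mediator and 14 Integrator mRNAs tested, where red marks an adjusted p under 0.05 and the dashed line is the median of all genes. The 12 red Mediator mRNAs run from 0.066 in MED8 to 0.23 in MED18, and the 2 red Integrator mRNAs are INTS2 and INTS13.

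Within Mediator the slower mRNAs were spread over the modules. The counts by module stand beside 21.7% of all genes that were slower, and differences between modules were not tested. In the head, 4 of 7 were slower (MED6, MED8, MED11 and MED18), and in the middle 5 of 9 (MED1, MED4, MED9, MED19 and MED31). The tail had 2 of 9 (MED25 and MED27), the kinase module had 1 of 3 (MED13), and the scaffold subunit MED14 did not pass the test. In Integrator, 1 of 3 backbone mRNAs (INTS2) and 1 of 4 mRNAs of the arm (INTS13) were slower, against 0 of 4 in the shoulder and phosphatase module and 0 of 3 in the cleavage module.

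MED31, a small and highly conserved subunit of the middle module (ENSG00000108590, chromosome 17, 6643311 to 6651634), kept its conversion for several hours in sgCNOT3. In sgNT its conversion was 61.2% and 57.2% at 0 h, 60.5% and 52.7% after 1 h, 42.8% and 49.7% after 2 h, 39.0% and 45.5% after 4 h, 14.0% and 15.8% after 8 h, and 2.52% and 4.17% after 12 h. The sgCNOT3 values were 54.3% and 52.1% at 0 h, 51.5% and 53.1% after 1 h, 51.3% and 51.0% after 2 h, 50.1% and 46.6% after 4 h, 24.8% and 30.5% after 8 h, and 9.71% and 14.5% after 12 h. The sgCNOT3 libraries were below those of sgNT at 0 h and above them at 2, 4, 8 and 12 h, with no overlap at any of these times. The slope difference was 0.16 ± 0.032 log2 units per h (SE, limma adjusted p = 0.00128). At 12 h the difference was 1.77 ± 0.20 on the log2 scale (limma adjusted p = 2.3e-05). The difference at 8 h also passed the test (limma adjusted p = 0.00760), but those at 0, 2 and 4 h did not (0.900, 0.898 and 0.644). Groups said not to overlap, here and below, are 2 libraries against 2, which is not a test. At 12 h, 51.9% of all genes were higher in sgCNOT3 without overlap. The last 500 bases of MED31 overlap TXNDC17 on the other strand, and it is not given whether strand was used when reads were assigned.

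MED27, a tail subunit, had the smallest adjusted p of the slope difference among the 43 members tested. Its sgNT conversion was 52.6% and 46.8% at 0 h, 48.7% and 47.2% after 1 h, 32.8% and 34.9% after 2 h, 30.7% and 25.2% after 4 h, 15.3% and 12.6% after 8 h, and 5.54% and 4.53% after 12 h. The sgCNOT3 values were 26.9% and 32.9% at 0 h, 30.4% and 35.0% after 1 h, 27.3% and 28.4% after 2 h, 21.9% and 18.1% after 4 h, 14.7% and 17.1% after 8 h, and 9.01% and 8.64% after 12 h. The curves crossed: sgCNOT3 was the lower genotype without overlap through 4 h, overlapped with sgNT at 8 h and was the higher one at 12 h. The slope difference was 0.12 ± 0.019 (SE, limma adjusted p = 0.000124). MED27 was 0.73 lower on the log2 scale at 0 h (adjusted p = 0.0151) and 0.78 higher at 12 h (adjusted p = 0.00216). The differences at 1, 2 and 4 h did not pass the test (limma adjusted p = 0.087, 0.508 and 0.095). The call at 0 h was lost without sgCNOT3 replicate 1 or either sgNT library at that time (adjusted p from 0.056 to 0.156).

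MED1, the middle subunit best known for its contact with nuclear receptors, and MED19, also of the middle module, shared the low start in sgCNOT3. MED1 had 37.7% and 38.7% in sgNT at 0 h against 19.8% and 14.2% in sgCNOT3. At 12 h it had 1.76% and 2.85% against 3.84% and 4.85%. MED1 conversion in sgCNOT3 was 26.3% and 24.9% after 2 h, above its own level at 0 h. MED19 had 27.9% and 31.6% in sgNT at 0 h against 11.8% and 6.14% in sgCNOT3, but 1.33% and 0.970% against 1.21% and 1.59% after 12 h, where the groups overlapped. The slope differences were 0.14 ± 0.029 for MED1 (limma adjusted p = 0.00188) and 0.17 ± 0.058 for MED19 (limma adjusted p = 0.0343). For MED19 the slope call was lost without any 1 of 7 libraries, the adjusted p then being 0.051 to 0.105. These were both sgNT libraries at 12 h, both sgCNOT3 libraries at 0 h, both at 1 h and replicate 2 at 8 h.

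MED11 and MED18, both subunits of the head, had higher conversion some hours into the chase than at 0 h in sgCNOT3. MED11 in sgCNOT3 had 15.1% and 20% at 0 h, 27.1% and 25.5% after 2 h, 31.5% and 30.8% after 4 h, 30% and 31.2% after 8 h, and 16.7% and 14.3% after 12 h. In sgNT it had 31.2% and 31.6% at 0 h, 29.2% and 32.5% after 4 h, 15.2% and 12.2% after 8 h, and 11.7% and 6.45% after 12 h. The sgCNOT3 libraries thus began under those of sgNT and were above them without overlap at 8 and 12 h. MED18 had 36.2% and 26.4% in sgNT at 0 h against 13.0% and 16.3% in sgCNOT3. At 8 h it had 0.402% and 0.759% against 7.47% and 5.44%, so that its groups had changed order without overlap at either time. The slope differences were 0.15 ± 0.035 for MED11 (limma adjusted p = 0.00372) and 0.23 ± 0.062 for MED18 (limma adjusted p = 0.0103). In sgNT at 8 and 12 h MED18 lay near the 0.34 percentage points that were added to every value before the logarithm. Its slope difference ran from 0.11 to 0.61 over the alternatives. With a larger added value, 10% of the median at 0 h, its slope call and its call at 12 h were both lost. The last 500 bases of MED11 overlap CXCL16 on the other strand.

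MED9 of the middle module and MED25, a tail subunit known as the target of the viral activator VP16, had the other slope differences above 0.2 among the slower mRNAs. MED9 conversion began at 34.8% and 31.8% in sgNT and 21.8% and 32.4% in sgCNOT3, with overlap. At 8 h it was 1.44% and 3.69% against 14.3% and 11.9%, and at 12 h 0.136% and 1.08% against 2.31% and 2.12%, without overlap at either time. The slope difference of MED9 was 0.22 ± 0.052 (SE, limma adjusted p = 0.00462). MED25 began at 24.8% and 19.6% in sgNT and 26.5% and 19.1% in sgCNOT3. At 12 h it had 0.699% and a listed 0 in sgNT against 6.35% and 9.15% in sgCNOT3, while the groups overlapped at 8 h, with 10.2% and 6.79% against 8.98% and 5.03%. Its slope difference of 0.22 ± 0.073 (limma adjusted p = 0.0302) rested on the last time, since it was -0.031 when the 12 h libraries were left out. The call was also lost without any 1 of 5 libraries (the 4 libraries at 12 h and sgCNOT3 replicate 2 at 0 h), with adjusted p from 0.052 to 0.172.

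The remaining slower Mediator mRNAs had smaller differences. MED6 of the head had a slope difference of 0.13 ± 0.035 (limma adjusted p = 0.0114) and MED8, also of the head, 0.066 ± 0.020 (limma adjusted p = 0.0235). MED8 was higher in sgCNOT3 at 12 h, with 23.7% and 23.4% against 13.4% and 9.89% in sgNT, and the groups did not overlap. The MED6 call was lost without sgNT replicate 2 at 12 h (0.085, adjusted p = 0.073) and the MED8 call without either sgNT library at 12 h (0.063 and 0.040, adjusted p = 0.058 and 0.143). MED4, of the middle module, had 0.071 ± 0.025 (limma adjusted p = 0.0466), and its call was lost under 24 of 36 alternatives and turned in sign in 1 more. Without any 1 of 15 libraries its adjusted p was 0.051 to 0.142, with slope differences of 0.060 to 0.073. MED13, the subunit that ties the kinase module to the rest of Mediator, had 0.11 ± 0.023 (limma adjusted p = 0.00172).

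MED13 and its paralogue MED13L can share reads where their 3' ends are alike, and their values are uncertain to that extent. MED13 values in sgNT were 46.0% and 44.5% at 0 h and 3.42% and 2.14% after 12 h, and those in sgCNOT3 26.4% and 38.3% at 0 h and 3.79% and 5.78% after 12 h. MED13L values in sgNT were 39.4% and 36.4% at 0 h and 2.66% and 0.922% after 12 h, and those in sgCNOT3 45.9% and 40.9% at 0 h and 2.88% and 7.18% after 12 h. For both, the sgCNOT3 libraries at 12 h lay above those of sgNT. The MED13L slope difference was 0.098 ± 0.052 (limma adjusted p = 0.189, 95% interval -0.010 to 0.21). MED12, which activates the kinase, had the highest slope difference of the 43 members tested, 0.25 ± 0.12, but did not pass the test (limma adjusted p = 0.152, 95% interval -0.0045 to 0.51), and its sgNT replicates at 0 h were 61.9% and 33.3%. At 12 h MED12 was listed at 0 in both sgNT libraries and had a listed 0 and 3.15% in sgCNOT3.

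MED24, a tail subunit that also contacts nuclear receptors, stood apart from the other Mediator mRNAs. In sgNT its conversion was 38.7% and 34.1% at 0 h, 39.7% and 36.2% after 1 h, 31.1% and 32.9% after 2 h, 32.2% and 34.0% after 4 h, 24.9% and 20.8% after 8 h, and 16.8% and 19.4% after 12 h. The sgCNOT3 values were 21.2% and 19.6% at 0 h, 20% and 19.7% after 1 h, 19.9% and 14.2% after 2 h, 16.7% and 15.8% after 4 h, 15.7% and 14.9% after 8 h, and 10.1% and 10.4% after 12 h. All 12 sgCNOT3 values were below the sgNT values of the same time. The difference was -0.82 ± 0.15 on the log2 scale at 0 h (limma adjusted p = 0.00554) and -0.79 ± 0.15 at 12 h (limma adjusted p = 0.00126). The call at 0 h was lost without sgNT replicate 1 at that time (-0.74, adjusted p = 0.076). The slope difference was 0.017 ± 0.016 (limma adjusted p = 0.469, 95% interval -0.015 to 0.050). MED28, another tail subunit with a slow loss, had 44.4% and 38.5% at 0 h and 19.6% and 15.3% after 12 h in sgNT and 46.5% and 42.3% at 0 h and 22.3% and 24.6% after 12 h in sgCNOT3, with a slope difference of 0.036 ± 0.018 (limma adjusted p = 0.164).

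The lowest slope differences in Mediator were those of MED14 and MED16. MED14, the scaffold, had -0.018 ± 0.053 (95% interval -0.13 to 0.091). MED16, a tail subunit, had -0.016 ± 0.17 and followed no decay curve, with 4.84% and 1.39% at 0 h and a listed 0 and 22.2% after 12 h in sgNT. It changed sign under 9 alternatives. MED17, a central subunit of the head, had 0.053 ± 0.055 (limma adjusted p = 0.519).

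**Figure D3:**
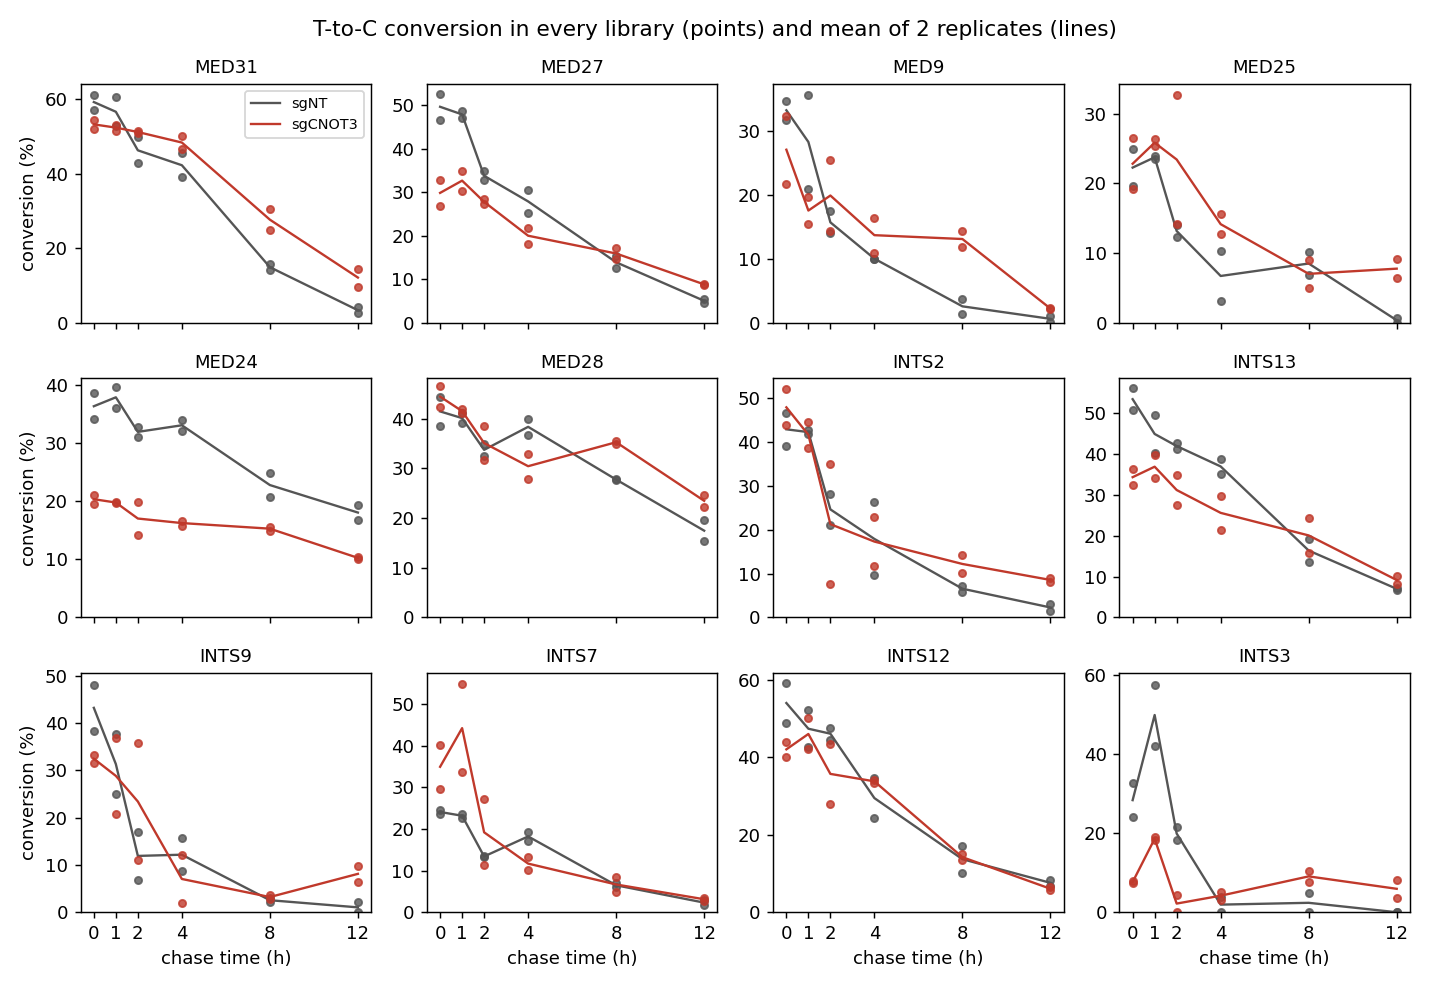
Conversion in percent against chase time in h for 6 Mediator and 6 Integrator mRNAs, where points are single libraries, lines join the means of 2 replicates, grey is sgNT and red is sgCNOT3, and each panel has its own vertical scale from 0. MED31, MED9 and INTS2 end higher in sgCNOT3, MED27 and INTS13 start lower and end higher, MED24 is lower throughout, and INTS12 is lower in sgCNOT3 at 0 h and at 12 h. For INTS12 and INTS13 the differences at 0 h and at 12 h did not pass the test.

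INTS13, an arm subunit of Integrator, and INTS2, a large subunit of the backbone, were the Integrator mRNAs with slower loss. INTS13 conversion in sgNT was 56.1% and 50.9% at 0 h, 41.3% and 42.7% after 2 h, 35.2% and 38.8% after 4 h, 13.5% and 19.3% after 8 h, and 6.73% and 7.30% after 12 h. The sgCNOT3 values were 36.4% and 32.4% at 0 h, 27.7% and 34.8% after 2 h, 29.9% and 21.4% after 4 h, 24.4% and 15.8% after 8 h, and 10.1% and 8.24% after 12 h. As with MED27, sgCNOT3 was lower without overlap at 0, 2 and 4 h and higher at 12 h. The INTS13 slope difference was 0.083 ± 0.024 (SE, limma adjusted p = 0.0148), and neither the difference at 0 h (adjusted p = 0.155) nor that at 12 h (adjusted p = 0.221) passed the test. Those at 2 h and 4 h did not pass either (limma adjusted p = 0.430 and 0.176). Without sgNT replicate 1 at 12 h the call was lost (0.072, adjusted p = 0.057).

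INTS2 started alike in both genotypes. Its conversion began at 46.7% and 39.1% in sgNT and 43.8% and 52.0% in sgCNOT3, with overlap, and at 2 h the sgCNOT3 replicates were as far apart as 35.0% and 7.53%. At 8 h it was 5.83% and 7.29% in sgNT against 14.2% and 10.2%, and at 12 h 1.52% and 3.04% against 8.00% and 9.12%, with no overlap. The slope difference was 0.16 ± 0.055 (limma adjusted p = 0.0370) and the difference at 12 h was 1.82 ± 0.58 on the log2 scale (limma adjusted p = 0.0267). The call at 12 h was lost without sgNT replicate 1 (1.39, adjusted p = 0.154), sgCNOT3 replicate 1 (1.92, adjusted p = 0.069) or sgCNOT3 replicate 2 (1.73, adjusted p = 0.108) at that time. Leaving out any 1 of 7 libraries ended the slope call, with 0.14 to 0.16 and adjusted p from 0.053 to 0.112. These were the sgNT libraries at 1 h, sgNT replicate 1 at 0 h and 12 h, the sgCNOT3 libraries at 12 h and sgCNOT3 replicate 1 at 8 h. INTS2 (chromosome 17, 61865367 to 61928016) and MED13 (chromosome 17, 61942605 to 62065278) are neighbours on the same strand.

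The cleavage module consists of the endonuclease INTS11, its inactive relative INTS9 and INTS4, and no mRNA of it passed the slope test. INTS11 had 17.9% and 22.0% in sgNT and 29.7% and 22.2% in sgCNOT3 at 0 h, and 3.00% and 5.14% against 6.83% and 7.77% after 12 h, where sgCNOT3 was higher without overlap. Its slope difference was 0.055 ± 0.043 (limma adjusted p = 0.386, 95% interval -0.034 to 0.14). INTS9 had 48.1% and 38.3% in sgNT and 31.6% and 33.3% in sgCNOT3 at 0 h. At 12 h INTS9 had a listed 0 and 2.06% in sgNT against 6.45% and 9.78% in sgCNOT3, and this difference passed the test (limma adjusted p = 0.0129), while the slope difference of 0.24 ± 0.094 did not (limma adjusted p = 0.0725). The 12 h call of INTS9 was lost without sgNT replicate 1 (adjusted p = 0.143) or sgCNOT3 replicate 2 (adjusted p = 0.076) at 12 h. INTS4 had a slope difference of 0.039 ± 0.043 (limma adjusted p = 0.561).

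In the shoulder and phosphatase module, the slope differences of INTS5, INTS6, INTS6L and INTS8 were 0.16, 0.16, 0.20 and 0.17 log2 units per h, and their SE of 0.065 to 0.12 were larger than in most members. INTS6 and INTS6L are paralogues that can share reads. INTS6L was erratic, with 4.84% and 83.3% in the sgNT libraries at 4 h. INTS7 of the backbone and INTS15 of the arm had the lowest Integrator slope differences, -0.028 ± 0.045 and -0.0087 ± 0.050. INTS7 had 29.6% and 40.3% in sgCNOT3 against 23.6% and 24.6% in sgNT at 0 h, which did not pass the test (limma adjusted p = 0.726). It was at 2.77% and 3.47% against 1.77% and 2.85% after 12 h, with overlap there. INTS12, a backbone subunit with a PHD finger, had a slope difference of 0.0062 ± 0.025 (95% interval -0.046 to 0.059). It was the 1 Integrator mRNA whose sgCNOT3 libraries were both lower at 12 h, at 6.45% and 5.68% against 8.32% and 6.86%. Its differences at 0 h and 12 h did not pass the test (limma adjusted p = 0.659 and 0.353).

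INTS3, which Integrator shares with the single-strand DNA-binding SOSS complex, was above 0 in 19 libraries only. Its conversion began at 32.6% and 24.0% in sgNT and 7.32% and 7.94% in sgCNOT3. It was listed at 0 in both sgNT libraries at 12 h and had 3.64% and 8.20% in sgCNOT3. When genes were tested with no minimum number of libraries, its slope difference was 0.58 ± 0.16 (limma adjusted p = 0.0107), in a fit that called 19.3% of 11692 genes slower and 0.282% faster. Its slope was -0.58 in sgNT and 0.00099 in sgCNOT3. The last 500 bases of INTS3 overlap SLC27A3 on the same strand, and reads of this part cannot be told apart.

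Conversion was also compared at single times. At 0 h, 5 Mediator mRNAs were lower in sgCNOT3 (MED1, MED11, MED19, MED24 and MED27) and no Integrator mRNA was, against 4.09% of all genes lower and 0.811% higher. Neither complex had a member that was higher at 0 h. The Mediator count at 0 h fell to 0 and 1 without sgNT replicate 1 and 2 at that time, and to 3 and 2 without sgCNOT3 replicate 1 and 2. MED1 and MED19 lost the call at 0 h without sgCNOT3 replicate 2 or either sgNT library at that time (adjusted p from 0.075 to 0.118 and from 0.067 to 0.134), and MED11 lost it without any 1 of 14 libraries, the 4 at 0 h among them (0.051 to 0.308). After 1 h MED19 and MED24 were lower in sgCNOT3 (background 2.45% lower and 0.923% higher), and after 2 h MED24 was (2.48% lower and 1.55% higher). After 4 h MED18 was higher and MED24 and INTS8 were lower (2.14% higher and 5.34% lower). At 8 h, 7 Mediator mRNAs were higher (MED6, MED7, MED8, MED9, MED11, MED18 and MED31) and 2 were lower (MED24 and MED30), and 2 Integrator mRNAs were higher (INTS6 and INTS15), against 18.9% of all genes higher and 1.98% lower. At 12 h, 14 Mediator mRNAs and 2 Integrator mRNAs were higher, against 31.8% of all genes, and MED24 alone was lower, against 2.73%. The higher Mediator mRNAs were MED15, MED21, MED23 and MED28 together with MED1, MED4, MED6, MED8, MED9, MED11, MED18, MED25, MED27 and MED31, and those of Integrator were INTS2 and INTS9. MED15, a tail subunit bound by activators of lipid synthesis genes, had 1.71% ± 0.296 in sgNT and 5.59% ± 1.15 in sgCNOT3 (SD, n = 2), a difference of 1.52 ± 0.47 on the log2 scale (SE, limma adjusted p = 0.0230). MED21 of the middle module had 7.34% ± 0.958 and 11.6% ± 2.15 (SD, n = 2, limma adjusted p = 0.0348), and MED23, a tail subunit that receives ELK1, 1.47% ± 0.517 and 4.46% ± 1.26 (SD, n = 2, limma adjusted p = 0.0369). Of the 4 that were not slower, MED15 and MED23 lost this call without any 1 of 3 libraries (adjusted p from 0.051 to 0.108 and from 0.052 to 0.188), and MED21 and MED28 without any 1 of 2 (0.178 to 0.224 and 0.110 to 0.178). These were all libraries at 12 h, namely sgNT replicate 2 and sgCNOT3 replicate 2 and, for MED15 and MED23, sgCNOT3 replicate 1. Among the slower mRNAs, MED1 lost the call at 12 h without sgNT replicate 1 or sgCNOT3 replicate 2 at that time (adjusted p = 0.107 and 0.093), MED6 without replicate 2 of either genotype (0.079 and 0.084), and MED11 without sgNT replicate 2 or sgCNOT3 replicate 1 (0.142 and 0.070). MED9 lost it without sgNT replicate 1 or either sgCNOT3 library (0.073 to 0.222). With libraries centred on their medians, MED25, MED31 and INTS9 were higher at 12 h, MED10, MED24 and INTS12 were lower, and MED24 was lower at 0 h. Without sgCNOT3 replicate 2 at 12 h the Mediator count was 7, and the Integrator count was 1 without either sgCNOT3 library at that time. The sgCNOT3 libraries at 12 h lay above both sgNT libraries for 18 of 29 Mediator and 6 of 15 Integrator mRNAs, against 51.9% of all genes, and below them for 1 of each, against 8.28%.

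Half-lives were fitted with a single exponential per genotype, with an upper limit of 24 h, and were kept for 21 Mediator and 12 Integrator mRNAs and for 7887 genes in all. The median half-life of Mediator mRNAs was 4.07 h in sgNT against 6.81 h in sgCNOT3. For Integrator it was 4.34 h and 4.22 h, and for all genes 5.63 h and 7.46 h. In both complexes the sgNT median was thus below that of all genes. The median log2 ratio of half-lives (sgCNOT3 over sgNT) was 0.63 in Mediator, 0.33 in Integrator and 0.22 in all genes. The half-life was longer in sgCNOT3 for 20 Mediator mRNAs and shorter for MED4, and it was longer for 9 Integrator mRNAs and shorter for INTS4, INTS7 and INTS15. MED4 was thus slower by the slope test but shorter by this fit, at 3.34 h in sgNT against 3.15 h in sgCNOT3. INTS2, also slower by the slope test, changed little, from 2.93 h to 3.13 h. The replicates of both disagreed in sign, with log2 ratios of -0.17 and 0.063 for MED4 and 0.47 and -0.88 for INTS2. Of all genes, 63.0% had a longer half-life. When libraries were scaled to a common decay, the median log2 ratio was 0.15 in Mediator, 0.043 in Integrator and -0.22 in all genes. With the replicate numbers fitted one by one, 16 of 21 Mediator mRNAs were longer in both, 5 had opposite signs and 0 were shorter in both. In Integrator 4 of 12 were longer in both, 2 shorter in both and 6 opposite, and 47.5% of all genes were longer in both.

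In sgNT the longest Mediator half-lives were those of MED24 (11.7 h) and MED28 (11.6 h), and the shortest those of MED17 (1.73 h) and MED26 (1.94 h), a subunit that docks elongation factors. The half-life of MED24 was 14.2 h in sgCNOT3, that of MED28 16.2 h, that of MED17 1.79 h and that of MED26 4.45 h. In sgNT MED26 fell from 36.8% and 21.8% at 0 h to 12.5% and 13.5% after 2 h and a listed 0 and 0.362% after 8 h. In sgCNOT3 it began at 29.3% and 16.9%, still had 20.9% and 17.7% after 4 h, and had 0.393% and 3.85% after 8 h. The sgCNOT3 libraries of MED26 lay above those of sgNT without overlap at 2, 4 and 8 h. The differences at these times did not pass the test (limma adjusted p = 0.783, 0.311 and 0.161). In Integrator the longest were INTS4 (7.63 h) and INTS13 (5.05 h) and the shortest INTS9 (1.62 h) and INTS5 (1.66 h), a subunit of the shoulder. The half-life of INTS4 was 7.46 h in sgCNOT3, that of INTS13 7.44 h, that of INTS9 2.72 h and that of INTS5 3.05 h. For INTS5 the replicates disagreed, with log2 ratios of 1.91 and -0.75. MED24 and MED28, adjacent in rank of half-life, did not differ beyond their replicates. These gave 10.7 h and 12.8 h for MED24 and 11.4 h and 11.8 h for MED28 in sgNT. Nor did MED17 and MED26, also adjacent in rank, with 1.59 h and 1.93 h against 1.64 h and 2.23 h.

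**Figure D4:**
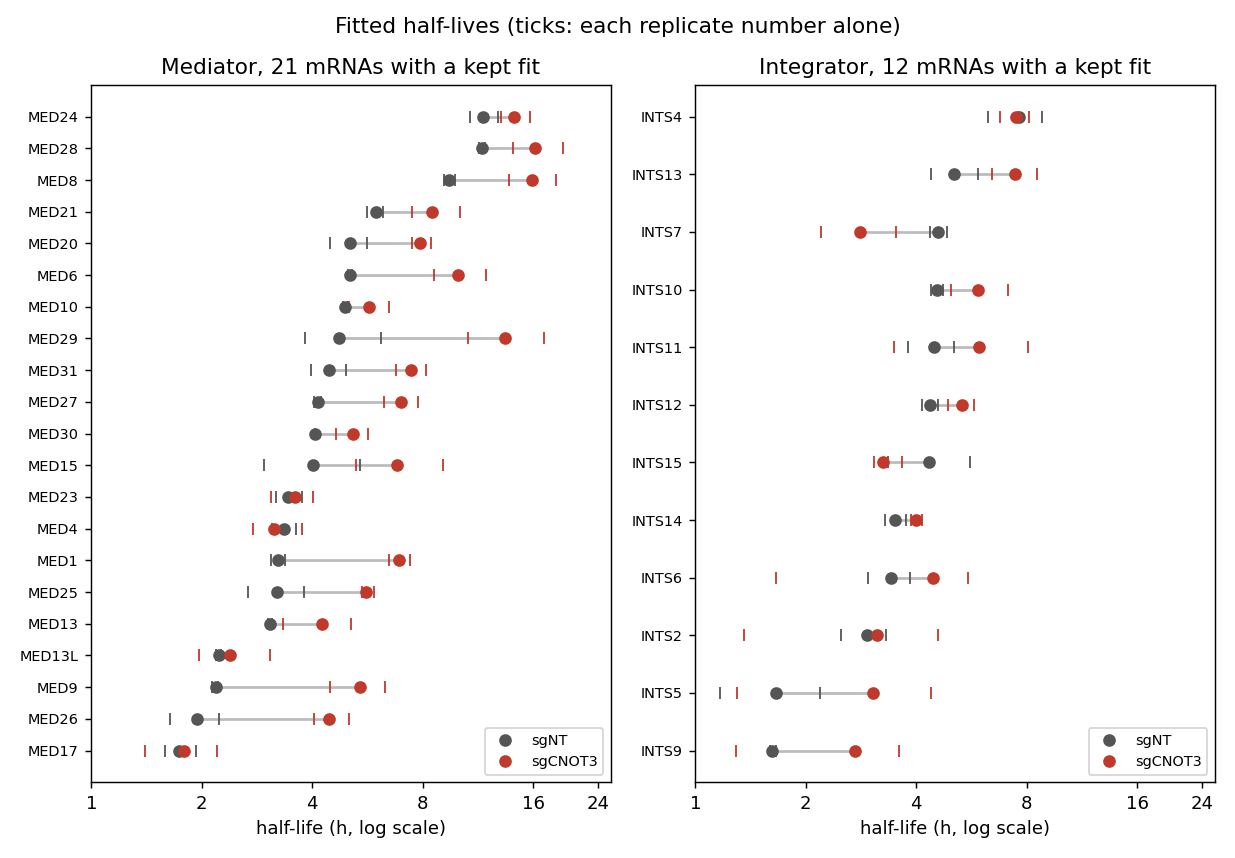
Half-lives in h on a log scale in sgNT (grey) and sgCNOT3 (red) for the 21 Mediator and 12 Integrator mRNAs with a kept fit, ordered by half-life in sgNT, where short ticks are the fits to each replicate number alone. For Mediator 20 red points lie to the right of the grey points, and for Integrator 9 of 12 do.

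The coding sequences of the complexes differed more in length than in the arginine codons marked in the sequences above. The median share of CGG, CGA and AGG was 2.41% in Mediator, 2.37% in Integrator and 2.85% over all genes. The median coding sequence had 268 codons in Mediator, 887 in Integrator and 445 over all genes, and the median GC content was 52.1%, 45.1% and 51.2%. Between the members the share of these codons ran from 0% in MED29 to 5.67% in MED26, with 34 such codons among 600. INTS12 had 1.08% and INTS5 3.53%. Both ends of this range had longer half-lives in sgCNOT3: MED29, a small tail subunit, had 4.74 h in sgNT against 13.4 h in sgCNOT3, and MED26 had 1.94 h and 4.45 h. MED29 conversion at 8 h was 7.06% and 5.24% in sgNT against 15.1% and 22.5% in sgCNOT3, without overlap, but its slope difference of 0.12 ± 0.049 did not pass the test (limma adjusted p = 0.0856). That of MED26, 0.15 ± 0.11, did not either (limma adjusted p = 0.331), and its last 500 bases overlap another gene on the same strand.

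Across the 33 members with a kept half-life, the share of CGG, CGA and AGG had a Spearman correlation of 0.17 with the log2 ratio of half-lives. It was 0.13 in Mediator and 0.24 in Integrator. GC content had a correlation of 0.42 with this ratio, 0.52 in Mediator and 0.17 in Integrator. Across the 43 members tested, the share had a correlation of 0.044 with the slope difference, against 0.13 over 10698 genes. That of GC content with the slope difference was 0.00076 over the 43 members. The slope in sgNT had a correlation of -0.70 with the slope difference over the 43 members and of -0.58 over all 10731 genes. These are correlations across genes, which share the same libraries and are not independent replicates, and the slope in sgNT is a term of the slope difference itself.

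**Figure D5:**
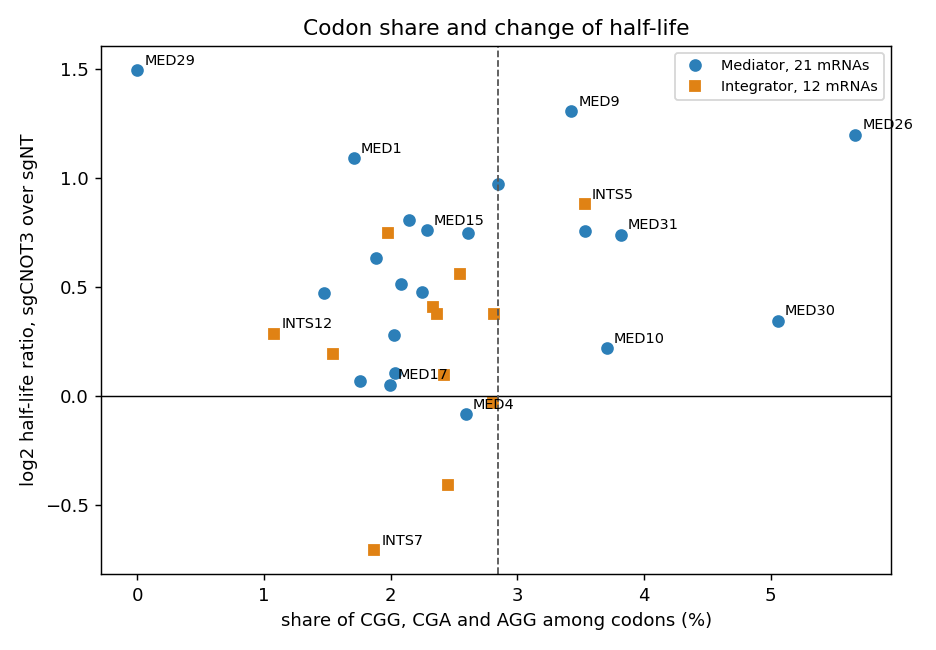
Log2 ratio of half-lives (sgCNOT3 over sgNT) against the share of CGG, CGA and AGG among codons in percent, 1 point per mRNA with a kept half-life (21 Mediator, 12 Integrator), with the median share of all genes as a dashed line. MED29 with a share of 0% and MED26 with 5.67% both lie high on the vertical axis, and INTS7 lies lowest.

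Genes that work with these complexes were listed for comparison. Of the Mediator kinase partners, CDK8, CDK19 and CCNC (cyclin C), 0 of 3 were slower in sgCNOT3. Of 10 Integrator partners, 3 were slower, namely PPP2CA, the catalytic subunit of PP2A (0.18 ± 0.027, limma adjusted p = 8.58e-05), INIP of the SOSS complex (0.12 ± 0.040, limma adjusted p = 0.0404) and WDR73 (0.098 ± 0.030, limma adjusted p = 0.0217). Of 24 factors of pausing and elongation, 10 were slower, and of 26 initiation factors of polymerase II, 9 were. The counts of these lists stand beside 12 of 29 in Mediator, 2 of 14 in Integrator and 21.7% of all genes. None of these lists held a gene with faster loss, against 0.345% of all genes. Their median slope differences were 0.024, 0.083, 0.071 and 0.064 in the order given, beside 0.12 for Mediator, 0.069 for Integrator and 0.058 for all genes.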

How the data were processed

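The single table that the authors deposited gives, for each gene, the fraction of T-to-C conversion (0 to 1) in each of 24 SLAM-seq libraries, which form 12 groups of 2. Per the paper's methods, 3' end (QuantSeq) reads were mapped to GRCh38 and handled as in earlier SLAM-seq work, and the submitters' processing notes name bcl2fastq. Not given in the sources used here are the aligner, the conversion caller, the annotation, the use of strand and whether reads or single T positions were counted. The deposited values carry no read counts, so depth is unknown, no counting interval can be given, and an exact 0 can mean no converted read or no read. No value was missing.

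A gene was kept if its conversion exceeded 0 in the 4 libraries at 0 h and in 20 or more of all 24 (10731 of 19798). limma 3.58.1 in R 4.3.3 was run on log2(conversion + pseudocount), with a pseudocount of 0.34 percentage points, which is 1% of the median at 0 h. On this scale the change of a gene near 0 depends on the pseudocount, and it is understated if the low values are true. Where a listed 0 means no read, the direction of the error is not known. Over the alternatives the 12 h difference ran from 1.40 to 4.90 for INTS9 and from 1.57 to 5.60 for MED25. The slope difference is the interaction of genotype and chase time, and differences at each time came from a model with 12 group means, both with the trend option, two-sided, with Benjamini-Hochberg adjustment over all genes kept and a threshold of 0.05. The slope model and the half-life fit were also run on data simulated with independent noise. Such data cannot show the effect of shared guides or cultures, of shifts of whole libraries, or of zeros that mean no read. For half-lives a single exponential with free amplitude and rate was fitted, separately in each genotype, to conversions divided by the mean at 0 h, with values above 24 h set to 24 h and fits with a residual standard error above 0.3 left out. Coding sequences of all 44 members came from GENCODE release 44, 1 transcript per gene. Python 3.11.15, numpy 2.4.6, pandas 2.3.3, scipy 1.17.1 and matplotlib 3.10.9 were used.

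The members, the lists and the tests were chosen with earlier results of these data known. The genes named were every member past the threshold in the slope difference, at 0 h or at 12 h, the 2 members of each complex with the lowest and the highest slope difference, the 2 with the longest and the shortest half-life in sgNT, the paralogues, INTS11, and members that did not pass the filter. MED7, MED10, MED29, MED30, INTS8 and INTS12 and the partner genes with slower loss were named after their values were seen. The alternatives were other pseudocounts, other filters on low values, libraries centred on their medians, shorter time ranges, no trend, the replicate number as a block, other half-life fits and each library left out in turn. Leaving out the sgCNOT3 libraries at 2 h and 4 h, whose replicates agreed least, was added after seeing the data.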

Additional observations from a re-analysis of the deposited data

Results flagged for a closer look

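For 14 mRNAs the difference between sgCNOT3 and sgNT changed with chase time by the interaction test. Among Mediator mRNAs the slope differences were 0.14 log2 units per h for MED1, 0.071 for MED4, 0.13 for MED6, 0.066 for MED8, 0.22 for MED9 and 0.15 for MED11. They were 0.11 for MED13, 0.23 for MED18, 0.17 for MED19, 0.22 for MED25, 0.12 for MED27 and 0.16 for MED31. In Integrator they were 0.16 for INTS2 and 0.083 for INTS13. None of the 14 passed the test with libraries centred on their medians over genes.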

How the results depend on the processing

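The median slope difference of Mediator was above that of Integrator under all 36 alternatives run, by 0.0081 (0 to 8 h only) to 0.17 (0 to 4 h only), and above that of all genes under all 36, whereas the Integrator median was above that of all genes under 34.

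Centring libraries on their medians gave 586 slower and 654 faster genes, 0 slower and 1 faster in Mediator and 0 slower in Integrator. At 0 h it left 3 higher and 100 lower genes and 1 lower in Mediator, and at 12 h 1084 higher and 1565 lower genes, with 2 higher and 2 lower in Mediator and 1 higher and 1 lower in Integrator. It turned the slope differences of INTS11 (-0.011), INTS4 (-0.027), MED17 (-0.012), MED24 (-0.049) and MED28 (-0.030), and the 12 h differences of MED21 (-0.080) and MED28 (-0.29). With 0 to 8 h only, 1244 genes were slower and 24 faster and 0 in Integrator were slower, and INTS15 (0.038), MED14 (0.049), MED16 (0.024) and MED25 (-0.031) turned sign. With 0 to 4 h only, 91 genes, 1 in Mediator and 0 in Integrator were slower. There the turned values were INTS11 -0.13, INTS13 -0.0012, INTS2 -0.034, INTS4 -0.27, INTS6 -0.046, INTS6L -0.22, INTS9 -0.18, MED13L -0.11, MED15 -0.075, MED16 0.88, MED17 -0.10, MED21 -0.036, MED23 -0.041, MED24 -0.042, MED28 -0.11, MED4 -0.035 and MED8 -0.065.

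A pseudocount of 10% of the median gave 20 faster genes, and 9 Mediator and 1 Integrator mRNAs were slower. The slope calls of MED4, MED18, MED25 and INTS2 were lost. At 0 h 132 genes were higher, with 1 lower in Integrator. At 12 h 2145 were higher, with 8 in Mediator and 0 in Integrator. A pseudocount of 0.1% gave 2 lower in Mediator at 12 h and turned MED16 (0.071). Genes above 0 in all 24 libraries gave 137 higher at 0 h with 1 lower in Integrator, and at 12 h 2 lower in Mediator and 1 higher in Integrator. Members listed at 0 in any library have no value there. The cause of these changes was not tested. Over the named genes 40 of 1861 values turned sign, 5 of them slope differences of called mRNAs.

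The log-linear fit gave median half-lives of 4.95 h in sgNT and a median log2 ratio of 0.41 over all genes, 3.71 h and 5.66 h in Mediator and 3.93 h and 4.96 h in Integrator. Libraries scaled to a common decay gave 6.37 h and 6.31 h with a ratio of -0.22 over all genes, 4.58 h and 5.92 h with 0.15 in Mediator, and 4.72 h in sgNT in Integrator. With no filter on the residual error the Integrator sgNT median was 3.92 h.

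Without single libraries or a replicate number, slower genes were 426 to 2545, in Mediator 1 to 14 and in Integrator 0 to 4, and faster genes 1 to 49. The lowest Mediator counts, 1 and 2, came without replicate numbers 1 and 2, and without any single library it was 8 or more. At 0 h 15 to 97 genes were higher and 136 to 482 lower, with 0 to 5 lower in Mediator and 0 to 1 in Integrator. At 12 h 2152 to 3558 were higher and 181 to 378 lower, with 7 to 15 higher and 1 to 2 lower in Mediator and 1 to 2 higher in Integrator. Half-life medians were 5.32 h to 5.99 h and 7.13 h to 7.87 h over all genes (ratio 0.17 to 0.29), 3.82 h to 4.07 h and 6.29 h to 6.46 h in Mediator (0.52 to 0.70), and 3.97 h to 4.09 h and 3.76 h to 4.49 h in Integrator (-0.16 to 0.40). The slope difference ran from -0.051 to 0.033 for INTS15, from -0.056 to 0.020 for MED14, from -0.23 to 0.20 for MED16 and from -0.057 to 0.16 for MED17.

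With the replicate number as a block, 11 Mediator and 2 Integrator mRNAs were slower, and at 12 h 15 Mediator mRNAs were higher. Deviations of equal numbers correlated at -0.055 to 0.22 over 66 pairs of groups, with 2 pairs above 0.1. Between the genotypes at the same chase time they correlated at -0.038 to 0.021. Such values cannot tell whether libraries of equal number shared a guide or a culture. Without the sgCNOT3 libraries at 2 h and 4 h, 10 Mediator and 2 Integrator mRNAs were slower.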

Other observations

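MED12L, the paralogue of MED12, was above 0 in 16 libraries. At 0 h it had 73.5% and 45.5% in sgNT, and a listed 0 and 33.3% in sgCNOT3. INTS1, the largest Integrator subunit, was above 0 in 10 libraries, with 15.2% and 2.13% in sgNT at 0 h and a listed 0 in both sgCNOT3 libraries. After 12 h the sgNT libraries listed 8 and 4 members at 0, and the sgCNOT3 libraries 2 and 1. Beside the overlaps given above, the last 500 bases of MED7 overlap HAVCR2 on the same strand. Those of MED20, whose values are not described, also overlap a gene on the same strand. Overlaps on the other strand were found for MED16, MED23, MED28, INTS4, INTS6, INTS8, INTS11 and INTS12.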
